A study of Mus musculus with 28 samples.

Results

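The genes described here encode the proteins of the cytosolic ribosome in mouse liver. They were taken as every array probe, controls left out, whose gene name in the scanner files was Rpl or Rps with a number and at most a short suffix, Rplp0 to Rplp2, or Rpsa. The name pattern found 133 probes, of which 130 passed the filter on dim probes, and these stood for 77 genes among 21860 tested: 43 of the large subunit, 31 of the small subunit and 3 of the stalk. Each gene was represented by its brightest probe, and all 77 were kept by the filter.

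Liver RNA came from male C57/6J mice that entered the study at 7 weeks of age, ate their diet for 26 weeks and were 33 weeks old at sampling. The group SD (5 livers) ate a standard diet and HFD (6 livers) a high fat diet. HQ (5 livers) ate the high fat diet with 0.4% quercetin, which is 4 g per kg of diet, and HR (6 livers) the high fat diet with 0.4% resveratrol, also 4 g per kg. HQR (6 livers) ate the high fat diet with 0.2% of each compound, 2 g of each per kg. Quercetin and resveratrol are plant polyphenols, and all groups other than SD shared the high fat diet. Each liver was hybridised to 1 single-colour array. Because the labels list whole liver, fewer cells of a type and less RNA per cell cannot be told apart in these values.

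A ribosome holds a small subunit, which reads the messenger RNA, and a large subunit, which joins amino acids into a protein. Their proteins are made in matched amounts, and the messenger RNAs of most of them begin with a C followed by a run of C and T (a 5' terminal oligopyrimidine tract, or TOP), through which mTOR signalling controls how well they are translated. In liver, ribosome content is known to follow feeding and growth. A change in TOP control acts on translation, so it need not change the amount of messenger RNA that an array measures.

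The start windows below are shown because the tract is the sequence feature this family is known for. Each runs from 10 bases before to 20 bases from the RefSeq start onward (30 bases, 5' to 3' on the gene's strand, GRCm38.p6), with the tract in capitals. A tract was counted where a C within 5 bases of the start was followed by at least 4 further C or T, on the gene's strand only.
Rps10 (chr17:27635225-27635254, minus strand): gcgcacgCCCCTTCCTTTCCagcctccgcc
Rpl28 (chr7:4792955-4792984, plus strand): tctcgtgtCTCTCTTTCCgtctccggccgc
Rps26 (chr10:128626487-128626516, minus strand): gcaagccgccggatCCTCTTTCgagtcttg
Rps18 (chr17:33955646-33955675, minus strand): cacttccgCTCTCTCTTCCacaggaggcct
Rps6 (chr4:86857348-86857377, minus strand): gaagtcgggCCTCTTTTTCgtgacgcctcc
Rpl31 (chr1:39367841-39367870, plus strand): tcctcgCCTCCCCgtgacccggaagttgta
Rps12 (chr10:23787190-23787219, minus strand): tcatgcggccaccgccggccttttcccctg
Rps10, Rpl28 and Rps26 were the members with the widest spread over livers, and Rpl31 and Rps12 those with the narrowest. The window of Rps12 held no such match, but a run of C and T lies further in, beyond the 5 bases allowed. A match was present in 27 of the 57 members with an entry (47.4%), in 5718 of all 27025 genes with an entry (21.2%) and in 16 of 66 mitochondrial ribosomal protein genes (24.2%). A match describes these letters only.

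The array probes that the main results turn on are 60-base sequences, given here 5' to 3' with the mm9 coordinates of the scanner files.
Rpl10a probe (chr17:28466425-28467486, plus strand): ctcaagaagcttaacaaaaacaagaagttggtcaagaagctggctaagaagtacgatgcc
Rpl3 probe (chr15:79910252-79910826, minus strand): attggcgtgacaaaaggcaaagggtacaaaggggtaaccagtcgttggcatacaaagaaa
Rps12 probe (chr10:23505016-23505075, minus strand): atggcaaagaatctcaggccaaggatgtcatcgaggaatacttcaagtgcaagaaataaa
Rps10 probe (chr17:27771085-27771144, minus strand): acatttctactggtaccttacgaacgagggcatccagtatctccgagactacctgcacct
The Rpl10a probe spans 1062 bases of genome and the Rpl3 probe 575 bases, so both cross at least 1 splice junction, while those of Rps12 and Rps10 lie within 60 bases. The scanner files placed the Rpl12 probe on chromosome 10 and the Rpl10 probe on chromosome 8, whereas RefSeq has the genes on chromosomes 2 and X. These were 2 of the 57 probes that could be compared. Ribosomal protein genes have many near-identical processed copies, so the values of Rpl12 and Rpl10 are uncertain as to which copy was read. The probe sequences were not placed against such copies. A matching chromosome therefore does not settle the question for the other members, and 20 members without a RefSeq entry were not compared.

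Between 59.4% and 82.1% of probes per array were well above background, the highest shares being those of the 3 arrays on slide 8 (HFD 5, HR 6 and HQR 4). The 28 arrays lay on 9 slides scanned on 4 days. All 7 hepatocyte markers (Alb, Ttr, Apoa1, Cps1, Cyp2e1, Hnf4a and Fabp1) were well above background on all 28 arrays. The summed level of 5 adipocyte markers ran from 1.74 to 3.68 (log2) in SD and from 5.64 to 6.43 in HFD, without overlap; of these markers Cfd was called (5.45 ± 0.58, limma adjusted p = 1.36e-05) and Lep was not measured. The summed levels of the lymphocyte, Kupffer cell, stellate cell, bile duct and erythroid markers overlapped between those groups. In the 3 supplemented groups the 8 sinusoidal endothelium markers summed to between 5.22 and 6.20, against 4.34 to 5.84 in HFD, which overlap. The adipocyte markers summed to 3.93 to 5.46 in HR, and every HR and HQR liver was below every HFD liver, while HQ, at 3.43 to 6.38, overlapped HFD. Groups did not overlap in 1.33% of all single genes for HFD against SD, 0.389% for HR and 0.0915% for HQR against HFD. The sums add intensities before taking the log, so the brightest marker of a list weighs most in them. Whether any of these cell types had a part in the values below was not tested.

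No ribosomal protein gene passed the threshold in any comparison. Levels are log2 intensities relative to the 75th percentile of their array, and differences were tested with limma across all genes, two-sided, with Benjamini-Hochberg adjustment and a threshold of 0.05. In the test of any difference among the 5 groups (a moderated F test), 0 of 77 members were called, against 0.105% of all genes, and at an unadjusted p below 0.05 there were 0 of 77 members against 3.96% of all genes. The members' differences lay between -0.54 and 0.54 on the log2 scale over the 7 comparisons, and the errors were of like size: for HFD against SD the median SE of a member was 0.26. For 72 of the 77 genes in that comparison the 95% confidence interval lay within a 2-fold change in either direction, and the number was 69 for HQ, 72 for HR and 63 for HQR against HFD, 77 for the 4 high fat groups against SD and 74 for the 3 supplemented groups against HFD. A change of over 2-fold thus lay outside the interval for most members. Smaller changes lay inside or outside it depending on the member, whose SE ran from 0.15 to 0.50 for HFD against SD.

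**Figure D1:**
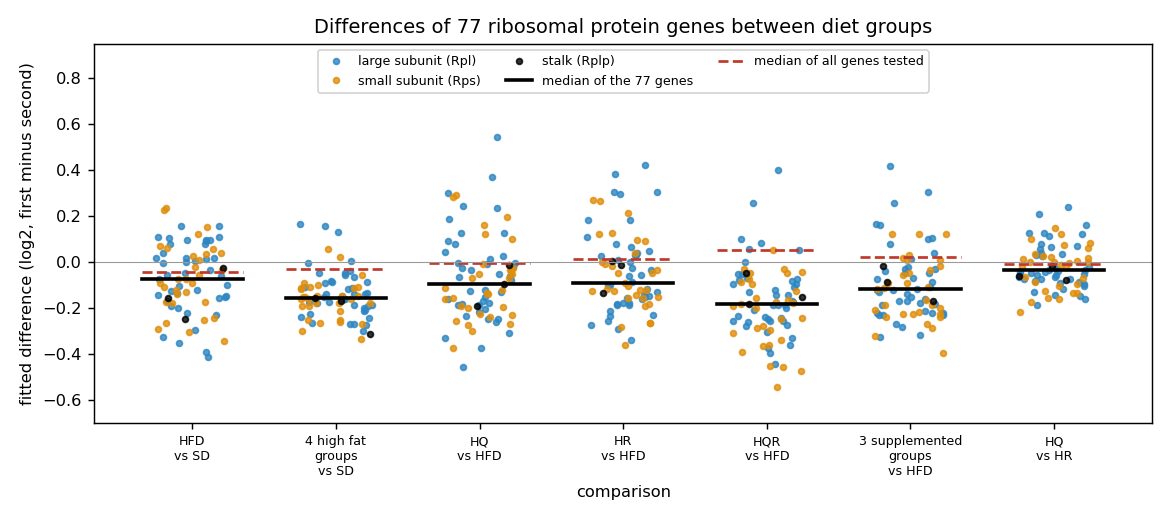
Fitted log2 difference (y axis, first group minus second) of each of the 77 ribosomal protein genes in the 7 comparisons (x axis), coloured by large subunit, small subunit and stalk, with the median of the 77 genes as a black line and that of all genes tested as a dashed red line. No point passed the adjusted threshold, and for HQR against HFD 69 of 77 points lie below 0.

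The high fat diet was first compared with the standard diet. The median member difference of HFD against SD was -0.07 on the log2 scale (49 of 77 below 0, against 55.4% of all genes, whose median was -0.04), and it turned to 0.05 under quantile normalization, with 33 of 77 below 0. No member was called, where the background was 0.114% of all genes, and 1 member had an unadjusted p below 0.05, against 6.14% of all genes. Large subunit genes had a median of -0.06, small subunit genes -0.08 and the 3 stalk genes -0.16.

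That 1 member was Rps12, a protein of the small subunit. Its level in the 5 SD livers was 8.44, 8.61, 8.54, 8.68 and 8.52 (log2), and in the 6 HFD livers it ran from 8.12 through a median of 8.24 to 8.41. Every HFD liver was below every SD liver, and no other member separated these groups without overlap. Rps12 was thus 1 of 77 members without overlap, against 1.33% of all genes, counted in either direction. The difference was -0.31 ± 0.15 (SE, n = 6 and 5; limma adjusted p = 0.81). On each of the 4 slides with SD and HFD livers the difference of Rps12 lay below 0, from -0.46 to -0.03. Among the members named in this report, Rpl10a and Rps16 were also below 0 on all 4. Rpl15, Rpl31, Rpl39, Rps21, Rps23 and Rps25 were above 0 on all 4. The share of all genes with 1 sign on all shared slides was not counted. Rps12 ran from 7.93 to 8.70 in HQ and from 7.97 to 8.45 in HR, which reached into the SD range, HR by 1 liver. In HQR it ran from 7.65 to 8.41, below every SD liver but close to the lowest, at 8.44. HQR was not compared with SD on its own, so the share of all genes without overlap was not counted for that pair. A second Rps12 probe, well above background on 21 of 28 arrays, gave 1.05 ± 0.54 for HFD against SD, the opposite direction.

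Rpl10a, a large subunit protein of the mobile L1 stalk that guides the spent tRNA out of the ribosome, had the largest negative difference from SD to HFD. Its SD livers read 2.29, 2.73, 2.53, 2.20 and 2.82 and its HFD livers from 1.95 through a median of 2.05 to 2.29. The groups overlapped, with HFD in the lower range and tightly spaced (SD 0.15, against 0.27 in the SD group). The difference was -0.42 ± 0.21 (limma adjusted p = 0.84), and it was below 0 on all 4 slides with both groups, from -0.53 to -0.18. With slide as a block it was -0.47 (limma adjusted p = 0.42).

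Rpl3, a core protein of the large subunit near the site where peptide bonds form, read 2.06, 2.38, 2.84, 1.51 and 2.26 in SD and 1.60, 1.81 and 2.12 as the lowest, median and highest in HFD. The SD livers spread over a wider range than the HFD livers and enclosed them, and the difference was -0.35 ± 0.20 (limma adjusted p = 0.89). Rpl41, a very short large subunit protein, differed by -0.39 ± 0.26 (limma adjusted p = 0.94). The largest positive differences were 0.24 ± 0.33 for Rps15a, 0.22 ± 0.45 for Rps26, a protein at the exit of the messenger RNA channel, and 0.16 ± 0.36 for Rpl15, each smaller than its SE. Without the liver SD 1 they were 0.02, -0.13 and -0.13.

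The next comparison set HQ, the diet with quercetin, against HFD. This comparison, the 2 that follow it and the previous one share the 6 HFD livers, so their values are given side by side and not as repeats of each other. The median member difference of HQ against HFD was -0.10 (58 of 77 below 0, against 50.9% of all genes, with an all-gene median of -0.00), and it turned to 0.02 when arrays were weighted by their quality. None of the 77 was called, with a background of 0% of all genes. At an unadjusted p below 0.05 there was 1 member, Rpl30, against 2.13% of all genes. No member separated the groups without overlap, against 0.165% of all genes.

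Rpl30, a large subunit protein that also binds selenocysteine insertion elements, read 3.92, 2.96, 4.04, 4.12 and 3.98 in HQ and 4.00, 4.33 and 4.46 as lowest, median and highest in HFD. The liver HQ 2 was far below the other 4, which sat at the lower edge of the HFD range. The difference was -0.46 ± 0.19 (limma adjusted p = 1.00 after rounding), and a second Rpl30 probe gave -0.34. Rpl29, a large subunit protein also known to bind heparin, had the largest positive difference. Its HQ livers read 4.37, 3.76, 3.59, 3.27 and 4.01 against 2.69, 3.30 and 3.75 in HFD as lowest, median and highest. The difference was 0.54 ± 0.29, but the 3 other Rpl29 probes gave -0.11, 0.15 and -0.01. Rpl3 read 2.14, 2.13, 2.23, 2.07 and 2.56 in HQ, most of them above the HFD livers given above, a difference of 0.37 ± 0.20. Rpl5, which binds 5S RNA and, outside the ribosome, the p53 regulator Mdm2, differed by 0.30 ± 0.31. Rpl39, which lines the exit tunnel, differed by -0.38 ± 0.29 and Rps25, needed for initiation at some viral internal entry sites, by -0.38 ± 0.42. Without the liver HQ 2 the 3 negative differences were -0.25 for Rpl30, -0.11 for Rpl39 and -0.06 for Rps25.

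Resveratrol against the high fat diet gave a median member difference of -0.09 (50 of 77 below 0, against 47.9% of all genes, whose median was 0.01), which turned to 0.03 under quantile normalization and to 0.01 with the deposited value table. None of the 77 was called, with a background of 0.00915% of all genes. No member was free of overlap (0.389% of all genes), and 1 member, Rpl10a, had an unadjusted p below 0.05, against 4.92% of all genes. Rpl10a read from 2.00 through a median of 2.53 to 2.88 in HR, with 1 liver inside the HFD range and 5 above it. The difference was 0.42 ± 0.20 (limma adjusted p = 1.00 after rounding). With slide as a block it was 0.63 (limma adjusted p = 0.26), and on the 4 slides with HR and HFD livers it was above 0 each time, from 0.45 to 0.75. With normexp background correction it was 0.21. The same sign on all 4 slides was common among the named members. Rpl29 was also above 0 on each, and Rps15a, Rps23, Rps25 and Rps26, among others, were below 0 on each. Rpl5 (0.38 ± 0.29) and Rpl3 (0.31 ± 0.19) followed Rpl10a, at 0.15 and 0.06 with normexp, and at the other end stood Rps25 (-0.36 ± 0.40), Rpl30 (-0.34 ± 0.18) and Rpl15 (-0.29 ± 0.34).

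The mixture of both compounds was compared with HFD in the same way. For HQR against HFD the median member difference was -0.18, with 69 of 77 below 0, against 41.6% of all genes, whose median was 0.05. The median stayed below 0 under the other scalings, filters and blocks tried, from -0.10 with the deposited value table to -0.25 with array median scaling, apart from scaling to the members themselves, which sets it to about 0 by construction. Without the liver HFD 3 it was -0.06. By subunit, 30 of 31 small subunit genes, 36 of 43 large subunit genes and all 3 stalk genes lay below 0, with medians of -0.19, -0.18 and -0.15. None of the 77 was called (0% of all genes), none reached an unadjusted p below 0.05 (1.36% of all genes) and none was free of overlap (0.0915% of all genes). A difference of -0.18 is within the spread between livers of 1 group, as the array values below show, and since the members move together 69 genes below 0 are not 69 separate observations.

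The largest negative differences in HQR belonged to widely varying small subunit genes. Rps23, a protein of the decoding centre, read 4.81, 5.78 and 6.42 in HQR and 5.46, 6.21 and 7.22 in HFD as lowest, median and highest, so the groups overlapped over most of their range. The difference was -0.54 ± 0.39 (limma adjusted p = 0.99). Rps21 differed by -0.47 ± 0.41 and Rps10, a protein near the entry of the messenger RNA channel that is ubiquitinated on stalled ribosomes, by -0.46 ± 0.48. On the positive side stood Rpl29 (0.40 ± 0.28), Rpl10a (0.26 ± 0.20) and Rpl3 (0.10 ± 0.19). The Rpl29 value came from 1 liver, HQR 1 at 5.24, where the other 5 lay between 3.11 and 3.53, and without it the difference was 0.09. The negative differences rested on the same liver in part: without HQR 1 they were -0.36 for Rps23, -0.20 for Rps21 and -0.20 for Rps10. Rpl10a was above 0 on all 4 slides that held HQR and HFD, from 0.19 to 0.52. Rpl29 was above 0 on all 4 as well, and Rpl30, Rpl39, Rps21 and Rps23, among others, were below 0 on all 4.

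**Figure D2:**
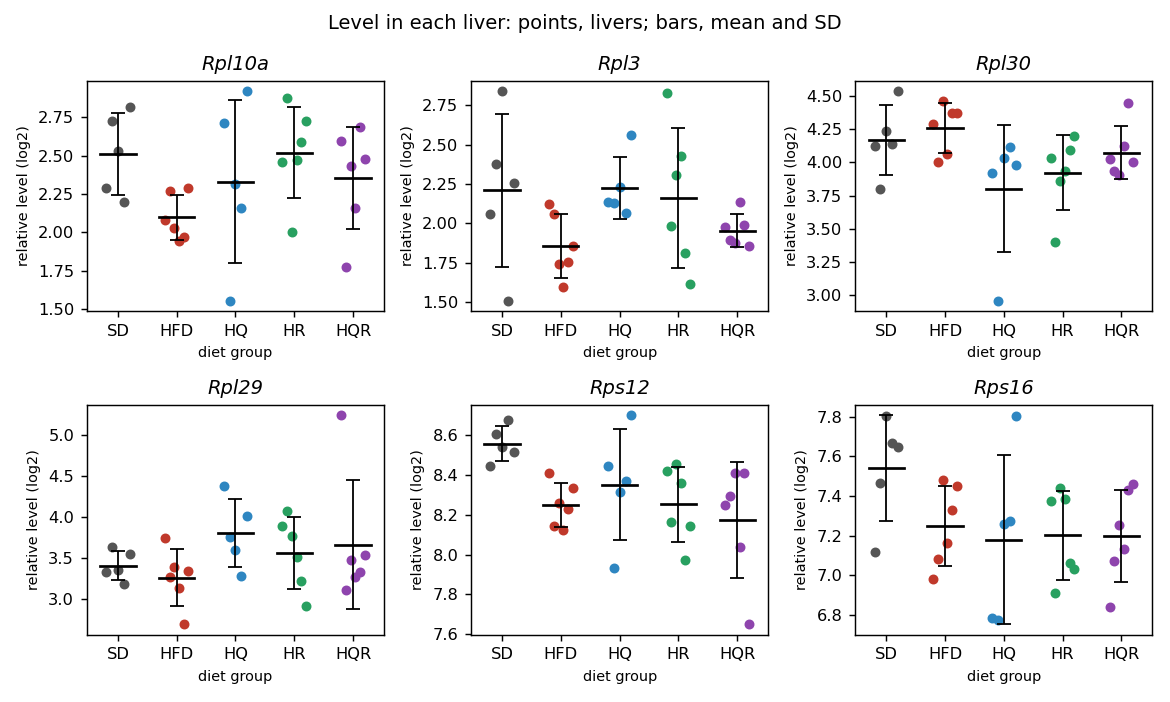
Level relative to the array's 75th percentile (y axis, log2) of 6 ribosomal protein genes in each liver of the 5 diet groups (x axis), with a point per liver and bars for the mean and SD. The HFD livers of Rpl10a sit between 1.95 and 2.29, and those of Rps12, from 8.12 to 8.41, lie below the SD livers.

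Quercetin and resveratrol, which both are polyphenols but of different classes (a flavonol and a stilbene), were compared at the equal dose of 4 g per kg. The 77 members had a median difference of -0.04 for HQ against HR (48 below 0, against 51.8% of all genes). That direction turned under array median scaling (0.02), array weights (0.14), the slide blocks (0.01) and scan day as a block (0.02). None of the 77 was called, with a background of 0% of all genes, and none had an unadjusted p below 0.05, against 1.29% of all genes. For 76 of the 77 genes the 95% confidence interval of the difference lay within 2-fold in either direction. The largest differences were 0.24 ± 0.29 for Rpl29, 0.21 ± 0.16 for Rpl31 and 0.16 ± 0.24 for Rpl21, and -0.22 ± 0.30 for Rps28, -0.19 ± 0.21 for Rpl10a and -0.18 ± 0.27 for Rps20. Without the liver HQ 2 the last 3 went to 0.09, 0.00 and 0.07. The fit used 4 HQ livers for Rpl21 and Rps20, because 1 spot of each was marked as an outlier by the scanner software. With the mean of all kept probes in place of the brightest, Rpl21 turned to -0.52 and Rps20 went to -0.96; in the liver with the dropped spot that mean rests on the dimmer probe alone. HQR had other doses and was not set against either compound.

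Over all 4 high fat groups against SD, the median member difference was -0.16, with 71 of 77 below 0, against 55.5% of all genes, whose median was -0.03. Scaling to the members apart, it stayed below 0 under each alternative but was -0.02 with quantile normalization, and it was also -0.02 without the liver SD 3 and -0.33 without SD 1. None of the 77 was called, with a background of 0.16% of all genes, and 2 had an unadjusted p below 0.05, against 7.18% of all genes. One was Rps12 (-0.30 ± 0.12, limma adjusted p = 0.53). The other was Rps16, whose tail reaches the tRNA in the small subunit. Rps16 read 7.12, 7.47, 7.80, 7.67 and 7.65 in SD, while its median was 7.25 in HFD, 7.26 in HQ, 7.22 in HR and 7.19 in HQR. Each high fat group had livers inside the SD range, and the difference was -0.33 ± 0.15 (limma adjusted p = 0.61). For HFD against SD it was below 0 on all 4 shared slides, from -0.38 to -0.13.

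Rplp0, the stalk's base protein and a common reference gene, differed by -0.31 ± 0.16 between the high fat groups and SD (limma adjusted p = 0.73). It read 7.54, 7.61, 8.07, 8.24 and 7.74 in SD and 7.47, 7.58 and 7.79 as lowest, median and highest in HFD. Positive differences were small: 0.16 ± 0.24 for Rpl29, 0.16 ± 0.23 for Rpl14 and 0.13 ± 0.13 for Rpl31. For the 3 supplemented groups against HFD the member median was -0.12 (60 of 77 below 0, against 46% of all genes, with an all-gene median of 0.02), below 0 under every alternative tried other than scaling to the members, and -0.01 without HFD 3. None was called there (0.00457% of all genes), and 1 member, Rpl30 at -0.33 ± 0.15, had an unadjusted p below 0.05 (3.42% of all genes). Rpl29 (0.42 ± 0.23), Rpl10a (0.31 ± 0.16) and Rpl3 (0.26 ± 0.16) had the largest positive values. Over the alternative settings Rpl29 ran from 0.13 with the mean of kept probes to 0.55. Rpl10a ran from 0.13 to 0.55 and Rpl3 from 0.09 to 0.37, both lowest with normexp background correction. Rps25 (-0.40 ± 0.33) and Rps21 (-0.32 ± 0.34) stood beside Rpl30 at the negative end.

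Other members with known roles, or often used as reference genes, were not called in HFD against SD either. Rps18 differed by -0.18 ± 0.18, Rpl13a by -0.33 ± 0.24 and Rpl32 by -0.06 ± 0.39. Rps6, the ribosomal substrate of S6 kinase downstream of mTOR, differed by -0.06 ± 0.24. Rps3, near the entry of the messenger RNA channel, differed by -0.02 ± 0.18 and Rps19, a gene mutated in Diamond-Blackfan anaemia, by -0.12 ± 0.25. Rpsa, also known as the laminin receptor, differed by -0.24 ± 0.24, Rpl5 by -0.23 ± 0.31 and Rpl11, its partner in binding 5S RNA, by 0.02 ± 0.17. Rpl10, which joins the large subunit late in its assembly, differed by -0.00 ± 0.22, with the doubt about its probe given above.

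The diet groups accounted for little of the variation of these genes, and the slide for more. For each array, the median over members of the deviation from the gene's mean was taken. It ran from -0.65 in HQ 2 to 0.67 in SD 3, that is, over a wider span than any group difference. In SD the 5 livers had medians of -0.60, -0.03, 0.67, 0.43 and 0.12, so 1 group held both nearly the lowest and the highest liver. The 5 HQ livers had medians of -0.33, -0.65, 0.11, 0.22 and 0.56. The lowest, median and highest were -0.26, -0.02 and 0.62 in HFD, -0.38, -0.00 and 0.32 in HR and -0.55, -0.11 and 0.18 in HQR. The group means were 0.12 ± 0.48 (SD, n = 5) in SD, 0.05 ± 0.34 (n = 6) in HFD, -0.02 ± 0.48 (n = 5) in HQ, -0.04 ± 0.30 (n = 6) in HR and -0.13 ± 0.27 (n = 6) in HQR, all within their spread of each other.

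**Figure D3:**
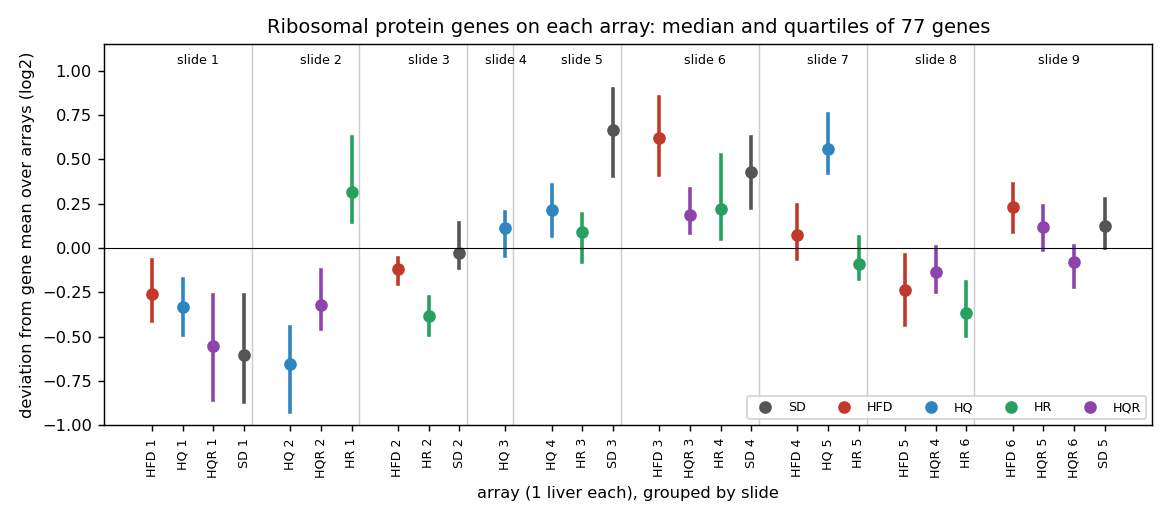
Median (point) and quartiles (bar) over the 77 genes of the deviation from each gene's mean over arrays (y axis, log2), for each of the 28 livers (x axis) ordered by slide and coloured by diet group. The 4 arrays of slide 1 all lie below 0 and the 4 of slide 6 above 0, although each of these slides holds 4 different diet groups.

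By slide, the same quantity was -0.44 ± 0.17 (SD, n = 4) on slide 1 and 0.36 ± 0.20 (n = 4) on slide 6. Slide 1 held 1 liver each of SD, HFD, HQ and HQR, and slide 6 1 each of SD, HFD, HR and HQR. For the 73 members measured on all arrays, slide accounted for a median of 57.5% of a gene's variance over livers and diet group for 7.20%. After adjustment for the number of levels these shares were 39.6% and -8.93%, where a share below 0 means less than the degrees of freedom alone give. The slide share was above the group share in 72 of 73 members, and in 68 of 73 after adjustment. The widest exception was Rps12, with adjusted shares of -14.0% for slide and 19.8% for diet group. Over all genes the adjusted medians were 30.7% and -5.59%, and the slide share was the larger in 20322 of 21675 genes, or 18125 after adjustment, so most genes on these arrays showed the same order. How livers were assigned to slides is not given in the sources used here, and what the slide stands for was not tested.

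Comparisons were also made with slide as a block. No member was called, against 0.146% of all genes for HFD against SD, 0% for HQ, 0.00457% for HR and 0.00915% for HQR against HFD, 0% for HQ against HR, 0.489% for the 4 high fat groups against SD, 0.00457% for the 3 supplemented groups against HFD and 0.146% for the 5-group test. Within single slides, mostly with 1 liver of each group, the member median of HFD against SD was above 0 on 3 of 4, from -0.11 to 0.32, whereas the pooled value was -0.07. It was -0.05 and 0.49 on the 2 slides with HQ and HFD livers, below 0 on all 4 with HR and HFD livers (-0.30 to -0.12), below 0 on 3 of 4 with HQR and HFD livers (-0.45 to 0.11, the positive one on slide 8) and from -1.10 to 0.71 on the 3 with HQ and HR livers. The members below 0 under the block were 40 of 77 for HFD against SD (61.4% of all genes; median -0.01), 61 for HQ (41.4%; median -0.13), 64 for HR (43.8%; median -0.18) and 71 for HQR against HFD (51.4%; median -0.18). They were 34 for HQ against HR (45.5%), 70 for the 4 high fat groups against SD (62.1%; median -0.13) and 64 for the 3 supplemented groups against HFD (43%; median -0.16).

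Under the same block a few members reached an unadjusted p below 0.05. For HFD against SD it was Rpl10a (1 of 77, against 11.1% of all genes). For HQ against HFD these were Rpl10a, Rpl30 and Rpl7a (3 of 77, 4.35%), for HR Rpl10a, Rpl23a, Rpl7a and Rps25 (4 of 77, 11.1%) and for HQR Rpl10a and Rpl23a (2 of 77, 2.56%). For HQ against HR there were 0 (2.9%), for the 4 high fat groups against SD Rpl12, Rpl7a and Rps16 (3 of 77, 10.5%) and for the 3 supplemented groups against HFD 7 members (7.32%), Rpl10a, Rpl23a, Rpl29, Rpl30, Rpl7a, Rps25 and Rps7. The 5-group test had 1 of 77 (7.2%), again Rpl10a. Other than for the 3 supplemented groups, these shares were near or below those of all genes. Rpl10a recurred in comparisons that share the HFD livers.

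**Figure D4:**
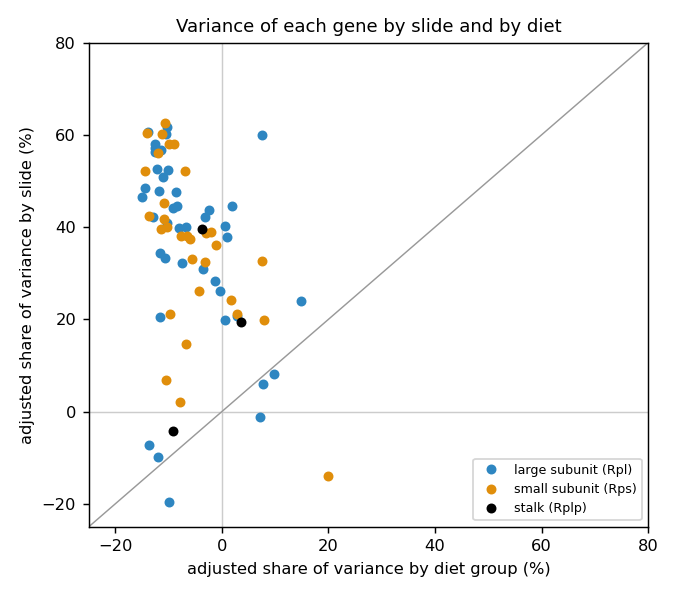
Share of each gene's variance over 28 livers by slide (y axis, %) against that by diet group (x axis, %), both adjusted for the number of levels, for the 77 ribosomal protein genes, coloured by subunit, with a line where both shares are equal. In 68 of the 73 genes measured on all arrays the slide share is the larger.

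Most members moved together from liver to liver. The first principal component of their levels held 77.5% of the variance of the 73 complete members, against 61.9% for as many mitochondrial ribosomal protein genes and 42.0% for all genes. The points share arrays, labelling and scaling, so this is a description. The amplitude differed between members. The SD over 28 livers ran from 0.226 for Rpl31 to 0.822 for Rps10, with a median of 0.409 against 0.476 for all genes. Rpl31 also had the lowest level of the members, from -1.51 to -0.59, whereas Rps12, likewise narrow, read from 7.65 to 8.70. Whether probe level had a part in the spread was not tested.

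Rps10 showed the widest swing. Its SD livers read 1.37, 2.96, 4.45, 3.60 and 3.09 (log2), and its HQ livers 2.25, 1.56, 3.35, 3.51 and 4.12. In HFD the lowest, median and highest were 2.16, 3.09 and 4.38. Livers of the same diet thus differed by over 2 log2 units, while the group means of SD and HFD were 3.09 and 3.15. Per unit of the median of the other members, Rps10 moved by 2.25 units and Rps12 by 0.29. The members that followed the rest least, beside Rps12, had slopes of -0.29 for Rpl29, 0.01 for Rpl21, 0.14 for Rpl14, 0.14 for Rpl10a and 0.26 for Rpl3. Of these, Rpl14 had a low level, from -0.55 to 1.01, but Rps9, from 0.42 to 2.79, had a slope of 1.63. Whether level had a part in the slopes was not tested. After Rps10 the widest members were Rpl28 and Rps26 (SD of 0.73 each), Rps21 (0.71), Rps25 (0.69) and Rps23 (0.69), and the narrowest after Rpl31 were Rps12 (0.23), Rpl27 (0.23) and Rpl11 (0.26). Members with the tract at the start had a median SD of 0.474 (27 genes), those without 0.388 (30 genes) and those with no entry 0.451 (20 genes), with ranges that overlapped almost wholly.

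**Figure D5:**
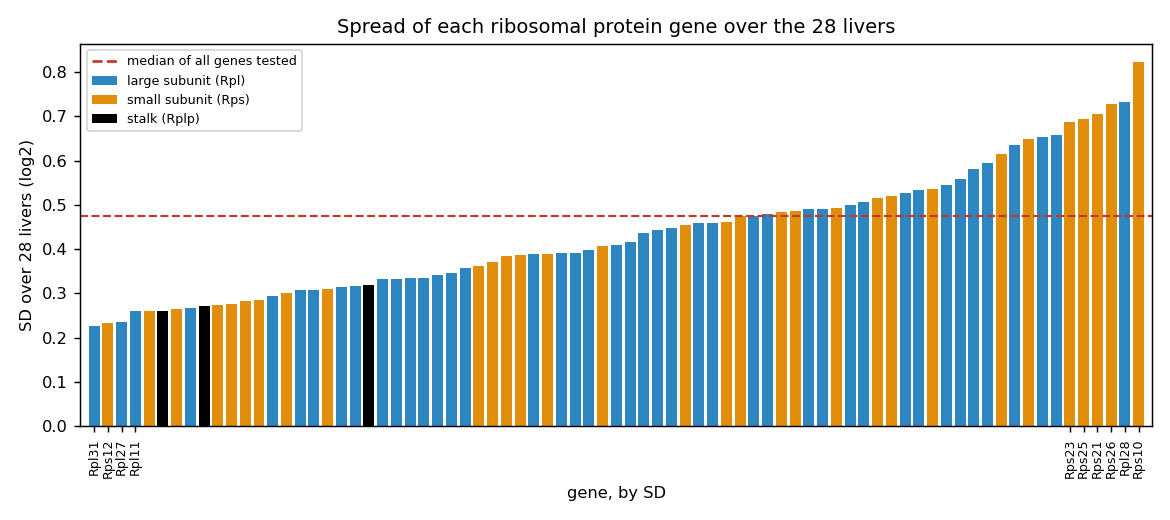
SD over the 28 livers (y axis, log2) of each of the 77 ribosomal protein genes (x axis, ordered by SD; the genes with the 6 widest and 4 narrowest values are labelled), coloured by large subunit, small subunit and stalk, with the median SD of all genes tested as a dashed line. The values run from 0.226 for Rpl31 to 0.822 for Rps10.

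Probes of the same gene often went apart. Of the 39 members with more than 1 kept probe, 17 had probes of both signs for HFD against SD, 16 for HQ against HFD, 17 for HR against HFD and 14 for HQR against HFD. The share over all genes with several kept probes was not counted, so these counts do not set the members apart. Besides Rps12 and Rpl29, Rplp0 was an example. Its brightest probe gave -0.10 ± 0.20 for HQ against HFD and its other 2 probes 0.42 ± 0.27 and 0.41 ± 0.29. For HR against HFD the brightest gave -0.02 and the others 0.48 and 0.44, whereas for HFD against SD all 3 were below 0, at -0.25, -0.42 and -0.46. A second Rps24 probe gave 0.62 ± 0.24 for HFD against SD where the brightest gave 0.01 ± 0.30, and for Rps25 the brightest gave 0.15 ± 0.42 and the other -0.35 ± 0.21.

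The genes that act around the ribosome gave no call either. None of 40 ribosome biogenesis genes, 21 translation factors and other TOP messenger RNAs, 21 regulators in the mTOR and MYC pathways, 8 measured ribosome genes outside the name pattern (of 11) and 75 mitochondrial ribosomal proteins passed the threshold in any comparison. Of all genes, only 0% to 0.16% did, depending on the comparison. In HFD against SD the biogenesis genes lay below 0 in 29 of 40, against 55.4% of all genes. Polr1b, a subunit of RNA polymerase I, was at -0.48 ± 0.21 (limma adjusted p = 0.76) and Rrs1 at 0.27 ± 0.23. Polr1b was 0.44 ± 0.21 in HQ and 0.41 ± 0.20 in HR against HFD, comparisons that share the HFD livers with the first. The translation initiation gene Eif3a was at -0.49 ± 0.19 in HFD against SD (limma adjusted p = 0.64). Among the regulators, Myc, a transcription factor that drives ribosome synthesis, was at 1.57 ± 0.68 for HR (limma adjusted p = 0.96), 1.17 ± 0.68 for HQR and 0.36 ± 0.71 for HQ against HFD, and Rptor, the mTOR complex 1 scaffold, was at -0.36 ± 0.13 for HR (limma adjusted p = 0.86). For HQR against HFD, 62 of 75 mitochondrial ribosomal protein genes lay below 0, beside 69 of 77 of the cytosolic ones. So did 18 of the 21 translation factors and other TOP messenger RNAs. Of all genes, 41.6% lay below 0 there.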

How the data were processed

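Per the file headers, the authors deposited 1 scanner file per array with processed signal intensity from Feature Extraction 10.5.1.1 (single colour, Cy3; mm9 coordinates). They also deposited a value table of 1 score per probe and array, whose making is not given in the sources used here. Each array's scores had a mean of 0 and an SD of 1, with medians from -0.169 to -0.0992, and followed the log of the processed intensity (lowest correlation 0.9999), so the factor to log2 was estimated (3.25) and the table served as an alternative.

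Here, spots marked as outliers were dropped, log2 intensities of a probe's spots averaged and each array's 75th percentile over non-control probes subtracted. Probes well above background on at least 5 arrays were kept (32087). For 7085 genes with several kept probes the brightest stood for the gene. Probe names were updated through RefSeq: 25097 matched by accession, 6333 by symbol and 1640 by synonym, and 8104 kept the array's name, while the members were chosen by the array's own names. Group means were fitted over all 28 arrays with limma 3.58.1 (R 4.3.3), which was tested on simulated data. Outlier marks removed 4 member values: Rps23 in HQ 1, Rpl21 in HQ 3, and Rpl7a and Rps20 in HQ 5. The precision is limited by the 5 or 6 arrays per group.

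The members, gene lists and tests were chosen with earlier results of these data known. Named members are the 3 largest differences in each direction per comparison, any called, and 12 reference or well-studied genes; of each other list, the extremes. Rps24, the members named by spread or under the slide block alone, and the disagreeing probes were chosen after their values were seen. Replicate numbers in the labels are shared between groups. Deviations of same-numbered livers correlated at 0.217 to 0.698 over the 5 pairs of HFD and SD, a pairing that the labels do not state. The pairs numbered 1 and 2 shared a slide (0.517 and 0.217), and the others, at 0.484 to 0.698, did not. Correlations of differently numbered livers are not given for comparison. The fit with replicate number as a block is given as an alternative. Start windows and tracts come from RefSeq (GRCm38.p6), which had 57 of the 77 members. One member's single value is not reported here.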

Additional observations from a re-analysis of the deposited data

Results flagged for a closer look

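The 160 groups tested covered 32 values, which were the levels of the named members and the median deviation of all members. Of these groups, 5 held a liver whose gap to its nearest neighbour was large for the group's range. By chance about 1 in 20 groups would. They lay on 3 arrays. Rpl29 was 5.24 in HQR 1, where the next highest HQR liver was 3.53. Rps21 was 3.39 in the same liver, the next lowest being 4.67. Rpl30 was 2.96 in HQ 2, the next lowest HQ liver being 3.92. Rps23 was 4.99 in HQ 2 against 6.61 for the next of the 4 HQ livers measured. Rpl39 was 5.47 in HFD 3, the next highest HFD liver being 4.85. HQ 2 and HQR 1 were among the livers with the lowest member medians (-0.65 and -0.55) and HFD 3 among the highest (0.62); the part this had in the single values was not tested.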

How the results depend on the processing

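No member was called in any of 13 alternative settings, 3 further ones chosen after seeing the data (scaling to the members, leaving out slide 8, and quantile normalization with slide as a block) or 28 fits that left out 1 liver each, for the 7 comparisons and the 5-group test. The lowest adjusted p was 0.22 with quantile normalization and slide as a block (HR against HFD) and 0.38 with a liver left out (4 high fat groups against SD). At an unadjusted p below 0.05 the most members were 7 with slide as a block (3 supplemented groups against HFD, 7.32% of all genes) and 7 with scan day as a block (4 high fat groups against SD, 8.59% of all genes), and 14 without the liver SD 1 (4 high fat groups against SD, 7.59% of all genes).

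The sign of the member median turned in 10 alternatives: HFD against SD in 2, HQ against HFD in 1, HR against HFD in 2 and HQ against HR in 5. Leaving out 1 liver gave medians from -0.24 (without SD 1) to 0.05 (without SD 3) for HFD against SD, from -0.26 (HQ 5) to 0.07 (HQ 2) for HQ, from -0.16 (HR 1) to 0.04 (HFD 3) for HR, from -0.26 (HQR 3) to -0.06 (HFD 3) for HQR, from -0.18 (HQ 5) to 0.15 (HQ 2) for HQ against HR, from -0.33 (SD 1) to -0.02 (SD 3) for the 4 high fat groups, and from -0.19 (HFD 5) to -0.01 (HFD 3) for the 3 supplemented groups. The causes were not tested. Normexp background correction moved the all-gene median to -0.14 for HFD against SD, 0.25 for HQ, 0.17 for HR and for the 3 supplemented groups, and 0.12 for HQ against HR, beside member medians of -0.01, -0.42, -0.33, -0.32 and -0.08. Scaling to the members moved it to 0.23 for HQR, 0.14 for the 3 supplemented groups and 0.12 for the 4 high fat groups. Averaging a gene's probes turned Rps12 in the 4 high fat groups to 0.16 and, for HQ against HR, turned Rpl21 to -0.52 and moved Rps20 to -0.96. Over all genes, calls for HFD against SD ran from 10 with the 2 groups alone to 81 with slide as a random block, and for the 4 high fat groups from 18 to 203.

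With replicate number as a block, no call changed, and the member medians were -0.05 for HFD against SD, -0.11 for HQ, -0.09 for HR, -0.18 for HQR, -0.05 for HQ against HR, -0.15 for the 4 high fat groups and -0.13 for the 3 supplemented groups. Same-numbered livers of the other 9 pairs of groups did not all correlate above 0.1.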
